A study of Mus musculus with 82 samples.

Results

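Head-to-head gene pairs are protein-coding genes on opposite strands whose transcription start sites lie at most 1 kb apart and that are transcribed away from each other, so that both start within 1 promoter region. They were taken from the curated RefSeq transcripts of the mouse genome build GRCm38, with the 5′ end of each gene's transcripts as its start. The rule found 824 candidate pairs among 21000 protein-coding genes, and 813 pairs with 1626 genes were left once each gene kept 1 partner, or 7.74% of the genes. The starts of a pair were 156 bp apart in the median, with quartiles of 75 and 300 bp. In 270 pairs they were at most 100 bp apart, in 340 pairs more than 100 and up to 300 bp and in 203 pairs more than 300 bp. Pairs of divergent neighbours, adjacent genes transcribed away from each other with starts 20 to 100 kb apart, served as the comparison and numbered 1777.

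Mammalian promoters in CpG islands often fire in both directions, because a region free of nucleosomes lets RNA polymerase II assemble at separate core promoters that face away from each other. At most such promoters the upstream product is an unstable non-coding RNA, whereas at a head-to-head pair both products are mRNAs. Many of the genes arranged in this way serve every cell, in DNA repair, translation and mitochondria.

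Nascent RNA was measured in V6.5 mouse ES cells, grown without any treatment in serum and leukaemia inhibitory factor. In scGRO–seq, nuclei are run on with propargyl nucleotides while intact and are then sorted singly into wells for barcoding by click chemistry. The same run-on on intact nuclei, barcoded in wells of many nuclei, is inAGTuC, and AGTuC is the bulk assay, in which strong detergent opens the nuclei during the run-on. Used here were 53 scGRO–seq libraries, summed into the 10 batches that the study kept for its distribution of reads per cell, 4 inAGTuC libraries and 2 AGTuC libraries of 1 batch. The labels do not tie libraries to separate cultures, and p-values therefore measure only the spread between these samples, which may be technical. A batch of scGRO–seq held 260012 to 5106225 reads, an inAGTuC library 623265 to 1462003 and the AGTuC libraries 2231837 and 4755740. Only scGRO–seq cells with at least 1000 reads were counted. They came from 50 of the 53 libraries and numbered 3726, with a median of 2647 reads. The paper's further limits on features per cell and on good cells per plate were not applied, so this is not its set of cells. The 8 ES cell markers together stood at 217 to 1038 RPM (reads scaled to a common depth) in the batches of scGRO–seq and at 1100 to 1149 in AGTuC, and the 5 markers of fibroblast feeders at 3.85 to 49.2 and at 14.3 to 18.7. The 8 markers of endoderm, mesoderm or neural cells stood at 21.5 to 54.5 in scGRO–seq and at 71.7 to 78.6 in AGTuC.

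Some samples stood apart. The third inAGTuC library showed no strand preference: 46.8% of the reads over genes without a gene opposite were on the sense strand, against 64.9% to 84.0% in the batches of scGRO–seq and 85.9% and 86.1% in AGTuC. Batch Exp236 was the largest, with 947 of the 3726 cells. Reads found in more than 1 library, 28.9% of the 20196981 deposited reads of the scGRO–seq libraries, were left out of each of them. The fourth inAGTuC library held nearly the same reads as a list labelled scGRO–seq of a batch not used here, so its assay rests on the label.

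The sequence between both starts is shown for those pairs of the textbook and of the highest expected number of joint cells that leave 50 to 300 bases between the starts. These 6 regions carry the promoters of both genes of a pair and lie outside both transcripts. They are written along the plus strand of GRCm38, so that the gene named first runs to the left and the gene named second to the right. Capitals mark matches to any of 10 short motifs searched on both strands, and overlapping matches run together. The regions are chr11:101551956-101552106, chr5:138171884-138172020, chr7:28741822-28741967, chr5:30154981-30155252, chr11:106256085-106256184 and chr2:180710000-180710225, in the order shown.
Brca1/Nbr1: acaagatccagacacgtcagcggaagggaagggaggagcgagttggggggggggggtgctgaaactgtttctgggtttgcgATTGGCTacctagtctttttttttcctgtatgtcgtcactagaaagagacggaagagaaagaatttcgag
Mcm7/Ap4m1: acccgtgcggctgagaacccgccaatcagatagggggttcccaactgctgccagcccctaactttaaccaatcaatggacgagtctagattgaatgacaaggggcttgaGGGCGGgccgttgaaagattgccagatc
Mrps12/Sars2: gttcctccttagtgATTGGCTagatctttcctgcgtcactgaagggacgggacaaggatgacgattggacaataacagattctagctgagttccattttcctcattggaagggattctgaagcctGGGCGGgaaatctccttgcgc
Hadha/Hadhb: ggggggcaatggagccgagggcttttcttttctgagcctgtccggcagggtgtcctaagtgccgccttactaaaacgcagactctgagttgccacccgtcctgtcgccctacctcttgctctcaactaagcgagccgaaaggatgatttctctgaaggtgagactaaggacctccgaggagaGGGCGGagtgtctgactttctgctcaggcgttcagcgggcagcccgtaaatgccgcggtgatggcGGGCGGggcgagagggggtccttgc
Ftsj3/Psmc5: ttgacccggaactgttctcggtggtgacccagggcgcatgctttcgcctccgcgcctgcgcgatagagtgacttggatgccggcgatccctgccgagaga
Dido1/Gid8: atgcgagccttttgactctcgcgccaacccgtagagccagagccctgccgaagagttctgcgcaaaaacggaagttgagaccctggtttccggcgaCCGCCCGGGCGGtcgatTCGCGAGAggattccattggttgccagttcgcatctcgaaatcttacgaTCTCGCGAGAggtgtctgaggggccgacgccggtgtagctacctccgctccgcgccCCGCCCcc
AGCCAAT, searched as the NFY core, was found between Brca1 and Nbr1 and between Mrps12 and Sars2, in both on the minus strand. Only this full form was marked. CCAAT without AG before it, as in the region of Mcm7 and Ap4m1, was not. The GC box GGGCGG, a site of Sp1, was found once between Mcm7 and Ap4m1 and once between Mrps12 and Sars2, 2 times between Hadha and Hadhb and 3 times between Dido1 and Gid8. The Dido1 and Gid8 region also held 3 matches of TCGCGAGA, counted on both strands, whereas the region of Ftsj3 and Psmc5 held none of the 10 motifs.

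Across all 813 pairs, the 300 bases around the midpoint of the starts were rich in CpG. Their median GC content was 62.3%, against 56% in the promoters of the 19374 other protein-coding genes, taken from 250 bases before to 50 bases after the start. The ratio of observed to expected CpG had a median of 0.857 in the pairs and 0.549 in the other promoters, and it was above 0.6 in 707 pairs (87.0%) and in 46.3% of the other promoters. The ETS core CCGGAAGT lay in 119 pairs (14.6%) and 4.57% of the other promoters. The YY1 core AAGATGGC lay in 72 pairs (8.86%) against 2.83%, and TCGCGAGA in 38 pairs (4.67%) against 1.20%. GGGCGG was found in 542 pairs (66.7%) and in 46.3% of the other promoters, AGCCAAT in 14.8% against 8.92%, the NRF1 core CGCATGCG in 4.8% against 2.26% and the cAMP response element TGACGTCA in 4.55% against 2.37%. The E-box CACGTG and the CTCF core AGGGGGC differed little, with 9.84% against 7.92% and 13.9% against 13.1%. The TATA box TATAAA was the exception among the 10 motifs and was rarer in the pairs, with 38 pairs (4.67%) against 13.7%. In the 203 pairs with starts more than 300 bp apart, the window of a pair holds neither start. In pairs with close starts it takes in both promoters and more transcribed sequence than a promoter window. These shares are therefore descriptions and carry no test.

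Gene bodies were read from 500 bp after the start to 500 bp before the end. A body of at least 1 kb was left in 1564 of the 1626 genes, in both genes of 761 pairs, in 1 gene of 42 pairs and in neither gene of 10 pairs. Core histone genes made up 22 of the 62 genes without a body. The paired genes took 8.35% ± 0.560 (SD, n = 10) of all body reads in scGRO–seq, 8.65% ± 0.578 (n = 4) in inAGTuC and 9.99% ± 0.0311 (n = 2) in AGTuC. Their median level, in RPKM (body reads per kb of body, scaled to the depth of the assay), was 0.581 in scGRO–seq, 0.677 in inAGTuC and 1.04 in AGTuC. Other genes with a body had median levels of 0.300, 0.353 and 0.351. At least 20 body reads were found on both sides of 655 of the 761 pairs in scGRO–seq, on 1 side of 92 and on neither side of 14. In AGTuC, both sides reached 20 reads in 620 pairs and neither side in 30, and in the shallower inAGTuC libraries both sides did so in 483 pairs. All but 5 pairs had a body read in AGTuC, and all 761 had one in scGRO–seq.

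Antisense reads were more frequent in the assays on intact nuclei. In scGRO–seq, the 1394 paired genes without an annotated gene opposite the body had median levels of 0.261 antisense and 0.593 sense. In AGTuC these medians were 0.0419 and 1.05. Among 604 pairs without such a gene opposite either body, sense reads exceeded antisense reads on both sides in 505 pairs in scGRO–seq. In each of inAGTuC and AGTuC they did so in 476. A sense level of at least 4 times the antisense level on both sides was found in 339 pairs in AGTuC but in 2 in scGRO–seq. The part of these antisense reads in the level of weak sides was not tested.

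The share of reads in the first 500 bp, where polymerases pause, was higher in AGTuC than in the assays on intact nuclei. Of the reads in the first 500 bp and the following 10 kb of the paired genes, 8.88% ± 2.47 (n = 10) lay in the first 500 bp in scGRO–seq, 12.8% ± 6.56 (n = 4) in inAGTuC and 42.9% ± 1.45 (n = 2) in AGTuC. The other genes gave 8.53%, 11.4% and 41.8%, so the paired genes lay within 1 SD of them in each assay. Reads at the first 500 bp of both genes were found in 771 of the 813 pairs in AGTuC and in 746 in scGRO–seq. In AGTuC the balance of the first 500 bp and that of the bodies had a Pearson r of 0.440 over 711 pairs, and the same side led in 62.6% of them.

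Both sides of a pair differed by about 2-fold in the median. The imbalance of a pair is the absolute log2 ratio of the levels of its sides, with 0.5 reads added. It was taken over pairs with at least 20 reads summed over both sides. Its median was 1.05 ± 0.0794 (SD, n = 10) in scGRO–seq, 0.980 ± 0.166 (n = 4) in inAGTuC and 1.12 ± 0.00202 (n = 2) in AGTuC. Without the third inAGTuC library, the inAGTuC value was 1.05. Neighbours 20 to 100 kb apart were less balanced, with 1.39 ± 0.207, 1.35 ± 0.364 and 2.53 ± 0.0894. The median of the pairs was below that of the neighbours in all 16 samples. The neighbours were not matched to the pairs in level or promoter. In AGTuC, 88.6% of paired genes and 60.8% of other genes with a body reached 20 reads. The CpG ratio was above 0.6 in 87.0% of pair windows and in 48.7% of the promoters of neighbour genes. Since 1 side alone can reach 20 reads, a nearly silent partner gives a wide ratio. The part of these differences in the contrast was not tested. In the pooled reads, 388 of 754 pairs (51.5%) were within 2-fold in scGRO–seq, 393 of 728 (54%) in inAGTuC and 342 of 735 (46.5%) in AGTuC, against 38.6%, 40.3% and 21.7% of the neighbours. A ratio over 8-fold was found in 44 pairs in scGRO–seq and in 94 pairs (12.8%) in AGTuC, against 45.9% of the neighbours in AGTuC.

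**Figure D1:**
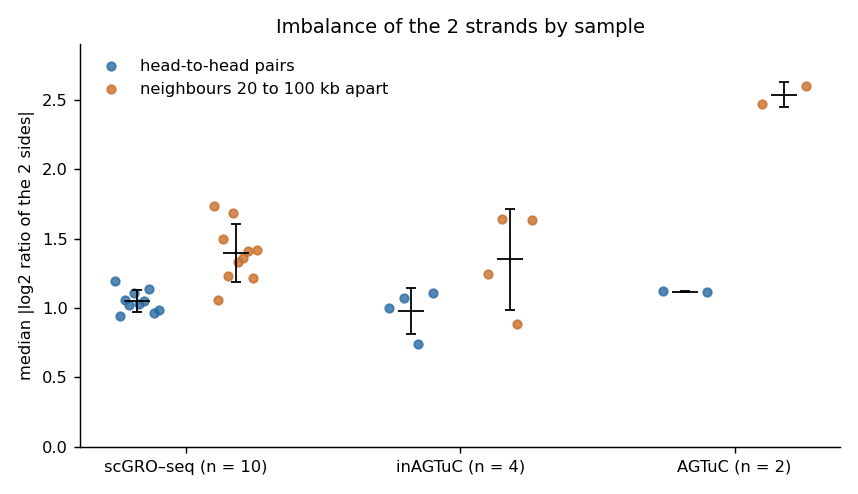
Median absolute log2 ratio of the levels of both sides (vertical axis) in each scGRO–seq batch, inAGTuC library and AGTuC library, for head-to-head pairs (blue) and neighbours 20 to 100 kb apart (orange). Bars show the mean and the SD over samples. In AGTuC the pairs sit at 1.12 and the neighbours at 2.47 and 2.60.

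The levels of both sides were nevertheless only loosely related. Their log2 values had a Pearson r of 0.227 in scGRO–seq, 0.206 in inAGTuC and 0.310 in AGTuC over 754, 728 and 735 pairs, while neighbours gave 0.157, 0.123 and −0.0268. These correlations run across pairs that share their libraries and are given as a description. Imbalance was larger in the pairs with starts more than 300 bp apart: in AGTuC the median was 1.04 ± 0.0132 (SD, n = 2) for starts at most 100 bp apart, 1.01 ± 0.0164 for starts up to 300 bp apart and 1.41 ± 0.0542 for starts farther apart. The values in scGRO–seq were 1.01 ± 0.115, 1.02 ± 0.0541 and 1.19 ± 0.166 (SD, n = 10), and these classes were not tested against each other.

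**Figure D2:**
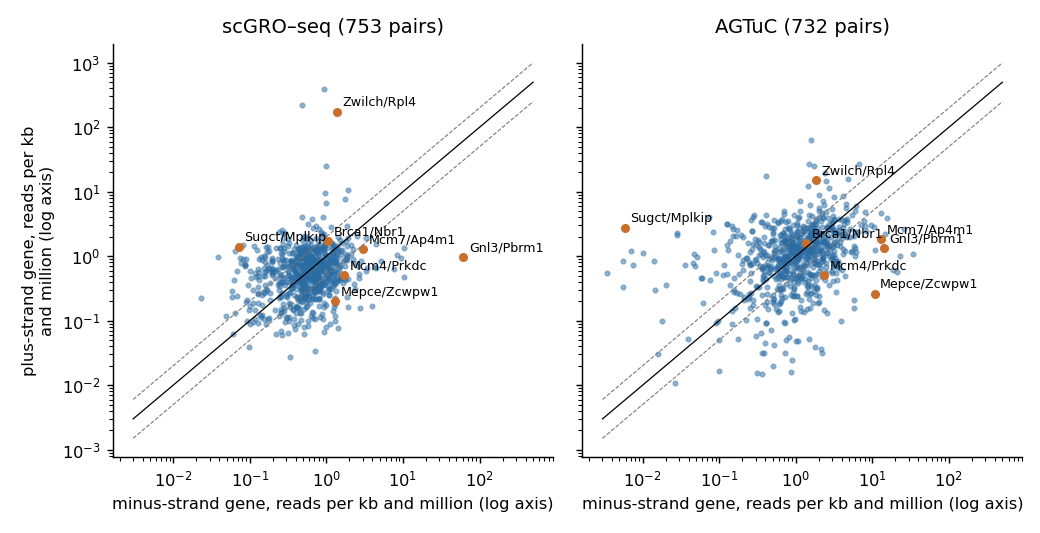
Level of the plus-strand gene against that of the minus-strand gene of each pair, in RPKM on log axes, in scGRO–seq (753 pairs) and AGTuC (732 pairs with reads on both sides). The solid line marks equal levels and the dashed lines a 2-fold ratio, and 7 named pairs are in orange. Most pairs lie as a broad cloud around the line, and Zwilch/Rpl4, which rests on reads at the ends of snoRNA genes in scGRO–seq, lies far from it there.

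The side that led was mostly shared between assays. Of 728 pairs, 618 (84.9%) had the same leading side in scGRO–seq and inAGTuC, and all 277 pairs that differed by at least 2-fold in both had it. Between scGRO–seq and AGTuC, 585 of 734 pairs (79.7%) had the same leading side. Of the 277 pairs with a ratio of at least 2-fold in both of these assays, 272 led on the same side and 5 on opposite sides. Neighbours had the same leading side in 89.6% between scGRO–seq and inAGTuC and in 87.1% between scGRO–seq and AGTuC.

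Of 15 pairs known from textbooks as sharing a promoter, the rule found 7 in this annotation. Brca1, which repairs DNA breaks by homologous recombination, and Nbr1, a receptor of selective autophagy, start 152 bp apart on chromosome 11. Brca1 was at 0.557 to 1.92 RPKM in the batches of scGRO–seq (median 1.10), at 1.11, 1.45, 0.737 and 1.77 in the 4 inAGTuC libraries and at 1.34 and 1.38 in AGTuC. Nbr1 was at 0.595 to 10.9 in scGRO–seq (median 1.09), at 1.22, 1.48, 0.949 and 1.74 in inAGTuC and at 1.74 and 1.51 in AGTuC. The ranges of both sides overlapped in scGRO–seq and inAGTuC, and the highest Nbr1 value, 10.9 in batch Exp211, lay far from the other batches. The log2 balance of Nbr1 over Brca1 was 0.25 ± 0.18 in AGTuC (n = 2), and no assay difference passed the test (adjusted p = 0.898 for AGTuC against scGRO–seq, limma).

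Mcm7, a subunit of the replicative helicase, led its partner Ap4m1, the medium subunit of the AP-4 adaptor complex, in each of the 16 samples. Its level was 1.63 to 11.6 in scGRO–seq (median 2.61), 1.27, 4.25, 2.17 and 3.71 in inAGTuC and 13.2 and 13.1 in AGTuC. Ap4m1 was at 0 to 2.71 in scGRO–seq (median 0.899), at 0.283, 1.72, 0.603 and 1.33 in inAGTuC and at 2.21 and 1.67 in AGTuC. Mcm7 was higher in AGTuC than in scGRO–seq by 1.96 on the log2 scale (adjusted p = 1.43e-05, limma), Ap4m1 differed by 0.64 (adjusted p = 0.263), and the log2 balance of Ap4m1 over Mcm7 changed by −1.27 ± 0.42 (SE, adjusted p = 0.0227). Between AGTuC and inAGTuC the balance did not pass (adjusted p = 0.09).

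Mcm4, another subunit of the helicase, led Prkdc, the catalytic subunit of the kinase that joins broken DNA ends, in each of the 16 samples. The log2 ratio of Prkdc over Mcm4 was −1.57 ± 0.43 in scGRO–seq, −1.0 ± 0.47 in inAGTuC and −2.20 ± 0.02 in AGTuC. The balance differed between AGTuC and inAGTuC (−1.18 ± 0.35 SE, adjusted p = 0.0216, limma), while the test between AGTuC and scGRO–seq did not pass (−0.58 ± 0.29, adjusted p = 0.139). In Atm and Npat, a kinase of the DNA damage response and a coactivator of histone genes, Npat led by 1.22 ± 0.03 on the log2 scale in AGTuC and by 0.44 ± 0.42 in scGRO–seq, where it led in 7 of 10 batches. That difference between the assays passed the test (0.83 ± 0.30 SE, adjusted p = 0.0352, limma), whereas that between AGTuC and inAGTuC did not (0.55 ± 0.34, adjusted p = 0.259).

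Hadha and Hadhb, which encode both chains of the mitochondrial trifunctional protein of fatty acid oxidation, gave ratios below 2-fold in the pooled reads of scGRO–seq and AGTuC. The log2 ratio of Hadhb over Hadha was −0.27 ± 0.74 in scGRO–seq, −0.10 ± 0.35 in inAGTuC and −0.72 ± 0.62 in AGTuC. Ftsj3, a methyltransferase of ribosomal RNA, led Psmc5, an ATPase of the proteasome, in all 16 samples, and the log2 ratio of Psmc5 over Ftsj3 was −1.43 ± 0.61 in scGRO–seq and −1.02 ± 0.44 in AGTuC. Mrps12, of the mitochondrial ribosome, had 8 body reads in all of scGRO–seq over its short body and 25 in AGTuC, and its partner Sars2, the mitochondrial seryl-tRNA synthetase, had 94 and 111, too few for a balance test.

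The widest ratios in scGRO–seq belonged to ribosomal protein genes and rested on reads at the ends of snoRNA genes inside them. Among the 536 pairs with at least 200 body reads, Lrsam1/Rpl12, Med22/Rpl7a and Zwilch/Rpl4 had the largest imbalance, with the ribosomal protein gene ahead by 457-fold, 421-fold and 125-fold in the pooled reads. In AGTuC the same ratios were 40.1-fold, 18-fold and 8.17-fold. With reads within 50 bp of a small RNA gene left out as well, an alternative chosen after seeing the data, the ratios were 11.4-fold, 1.93-fold and 5.04-fold in scGRO–seq and 35.8-fold, 14.7-fold and 7.08-fold in AGTuC. The Rpl4 level was 7.94 to 399 in the batches of scGRO–seq, 16.1, 7.58, 3.44 and 379 in inAGTuC and 15.6 and 15.1 in AGTuC. Zwilch, a kinetochore protein, was at 0.952 to 2.76 in scGRO–seq and at 1.61 and 1.98 in AGTuC. Much of the single-cell signal of these genes, as counted, lay in narrow pile-ups: 1 bin of 50 bp held 5526 of 8182 reads in the Rpl7a window, 4645 of 9965 in the Rpl4 window and 3902 of 4016 in the Rpl12 window, each at the end of a snoRNA gene. Reads on such genes had been left out, and these had their last base outside the annotated gene. A pile-up, a bin with at least 20 reads and over 20% of the window, was found in 50 paired genes, of which 13 were in a bin with a small RNA gene. The bins of all pile-ups held 15.7% of the scGRO–seq reads in the windows of paired genes. Leaving out the reads within 50 bp moved the ratio in scGRO–seq by over 1.5 times in 12 of 761 pairs.

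Differences between assays lay mostly between AGTuC and the assays on intact nuclei. For inAGTuC against scGRO–seq, with limma over 13904 genes, 0 of 1433 paired genes passed an adjusted p of 0.05, 86 had an unadjusted p under 0.05, as did 738 of all genes, and over all genes 0% passed. Without the fourth inAGTuC library 5 of 1425 paired genes passed (0.351%), near the share of all genes (0.291%), and 222 had an unadjusted p under 0.05, as did 2141 of all genes. Batch Exp208 holds 2 of the inAGTuC libraries and 1 of the scGRO–seq batches. With it as a block, 0 paired genes passed and 42 had an unadjusted p under 0.05, as did 407 of all genes. Within it, with 2 libraries of each assay, 3 paired genes passed in limma (0.18% of all genes did), the median log2 difference was 0.06 over paired genes and 0.03 over all genes, and 0 pairs passed in balance, where 24 pairs and 66 of all tested had an unadjusted p under 0.05. The 3 genes, named after their values were seen, were Wdr92, Spata5 and Usp29, lower in inAGTuC, with differences of −1.80 ± 0.33, −1.27 ± 0.28 and −2.38 ± 0.48 on the log2 scale (SE, adjusted p = 0.00603, 0.0444 and 0.0172). Between AGTuC and inAGTuC, 345 of the 1433 paired genes passed, where 31.2% of all genes did. Of these, 273 were higher in AGTuC, against 14.9% of all genes, and 72 were lower, against 16.3% of all genes. The median log2 difference was 0.46 over the paired genes and 0.14 over all genes tested. Between AGTuC and scGRO–seq, 631 paired genes passed, where 49.7% of all genes did. Of these, 552 (38.5%) were higher in AGTuC and 79 (5.51%) lower, against 30.2% and 19.5% of all genes, with medians of 0.57 and 0.29. Without the second AGTuC library the median log2 difference was 0.58 over paired genes and 0.25 over all genes in this comparison. In that with inAGTuC these medians were 0.43 and 0.11. With 1 AGTuC library left, the shares of genes called are not compared. In the first 10 kb alone, 208 of 1339 paired genes were higher and 36 lower in AGTuC than in scGRO–seq, against 16.2% and 6.91% of all genes.

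Gene length moved with this difference. Of paired genes under 10 kb, 56.9% were higher in AGTuC than in scGRO–seq (other genes 59.1%), of those of 10 to 30 kb 45.1% (40.7%) and of those of 30 to 100 kb 21.4% (17.1%). Over 100 kb, 40.2% of the 107 paired genes were lower in AGTuC, against 60.8% of other genes. Paired genes of over 100 kb had a median difference of −0.42 and other genes of that length one of −1.37.

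Few pairs had genes that passed in opposite directions. Among 658 pairs with both sides tested, both genes were higher in AGTuC than in scGRO–seq in 137 pairs, both lower in 9, and they moved in opposite directions in 7, while 1 side alone passed in 266 and neither in 239. Among 960 neighbour pairs the same numbers were 97, 54 and 67. For AGTuC against inAGTuC, 42 pairs had both genes higher, 8 both lower and 0 opposite, where the 960 neighbour pairs gave 22, 40 and 27, and at an adjusted p of 0.05 in limma 1 side alone passed in 210.

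The balance within pairs was tested as the difference of both sides over 1618 pairs and neighbours. Between inAGTuC and scGRO–seq, 0 of 658 pairs passed (0% of all tested), and 33 had an unadjusted p under 0.05, where 68 of all tested did. Without the fourth inAGTuC library 0 passed, and 71 of 650 pairs and 169 of all 1592 tested had an unadjusted p under 0.05. Between AGTuC and inAGTuC 80 of 658 passed, where 22.4% of all tested did, and between AGTuC and scGRO–seq 136 passed, where 32.6% of all tested did. The share of pairs was below this background in both comparisons, at 12.2% and 20.7%. Without the second AGTuC library the numbers were 11 (1.82%, beside 3.04% of all tested) and 25 (4.13%, beside 8.41%). Without the third inAGTuC library 53 pairs (8.28%) passed between AGTuC and inAGTuC, beside 16.3% of all tested.

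The leading side changed between assays in Mad1l1, a spindle checkpoint gene of 313 kb, and Nudt1, which clears oxidised purine nucleotides, 70 bp apart on chromosome 5. Nudt1 was at 0.147 to 0.450 in scGRO–seq, at 0.103, 0.549, 0.397 and 0.310 in inAGTuC and at 2.05 and 1.59 in AGTuC. Mad1l1 was at 0.535 to 1.66, at 0.571, 1.40, 0.586 and 1.10 and at 0.901 and 0.902. Mad1l1 led in all 14 samples of intact nuclei and Nudt1 in both AGTuC libraries, a shift in balance of 2.42 ± 0.31 (SE) between AGTuC and scGRO–seq (adjusted p = 1.48e-05, limma).

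Mepce, the capping enzyme of the 7SK RNA, led Zcwpw1, a reader of histone methylation in meiosis, in every sample. Mepce was at 0.602 to 4.05 in scGRO–seq, at 0.845, 2.24, 0.360 and 2.35 in inAGTuC and at 12.5 and 9.97 in AGTuC. Zcwpw1 was at 0.0698 to 0.377, at 0.234, 0.426, 0.120 and 0.361 and at 0.287 and 0.251. The Mepce side passed the test and the Zcwpw1 side did not (2.74 on the log2 scale between AGTuC and scGRO–seq, adjusted p = 8.92e-07, against 0.21 and adjusted p = 0.662 for Zcwpw1), and the log2 balance of Zcwpw1 over Mepce fell by 2.53 ± 0.39 (adjusted p = 0.000113).

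Sugct, a mitochondrial CoA transferase gene of 837 kb, and Mplkip, of 3.7 kb, were the most unequal of the named pairs in AGTuC. Sugct had 7 and 27 body reads in the AGTuC libraries, or levels of 0.00375 and 0.00679, against 0.0368 to 0.104 in scGRO–seq. Mplkip had 23 and 29 body reads, or levels of 3.82 and 2.26.

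Pno1, an assembly factor of the small ribosomal subunit, and Wdr92 start 304 bp apart on chromosome 11. Wdr92 was at 3.29 to 32.05 RPKM in scGRO–seq (median 7.16), at 2.37, 4.36, 0.644 and 2.16 in inAGTuC and at 0.723 and 0.773 in AGTuC. Pno1 was at 0.155 to 1.66 (median 0.856), at 1.74, 1.15, 0.463 and 0.744 and at 0.849 and 1.45. Wdr92 led in all 14 samples of intact nuclei and Pno1 in both AGTuC libraries, and the log2 balance of Wdr92 over Pno1 fell by 3.8 ± 0.65 between AGTuC and scGRO–seq (SE, adjusted p = 0.000264, limma). Against inAGTuC the change was −1.76 ± 0.77 and did not pass (adjusted p = 0.108). A pile-up held 1328 of the 2863 scGRO–seq reads in the Wdr92 window, and its part in this difference was not tested.

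Mrto4/Emc1, Uqcrh/Lrrc41 and Tas1r1/Nol9 were chosen for the smallest imbalance in the pooled reads of scGRO–seq. Their log2 balance over the batches was 0.54 ± 1.50, 0.08 ± 1.21 and 0.46 ± 1.84 (SD, n = 10), so that single batches were not even, and it was −1.85 ± 0.26, −0.16 ± 0.45 and 3.40 ± 0.10 in AGTuC (n = 2). Mrto4, a factor of ribosome assembly, was higher in AGTuC by 2.44 on the log2 scale (adjusted p = 0.000307, limma), and Emc1, of the membrane protein insertion complex of the endoplasmic reticulum, differed by 0.21 (adjusted p = 0.552). Nol9, a kinase of ribosomal RNA processing, was higher by 1.22 (adjusted p = 0.00107), while Tas1r1, a taste receptor, differed by −1.78 (adjusted p = 0.0707) and held a pile-up of 156 of 212 reads.

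**Figure D3:**
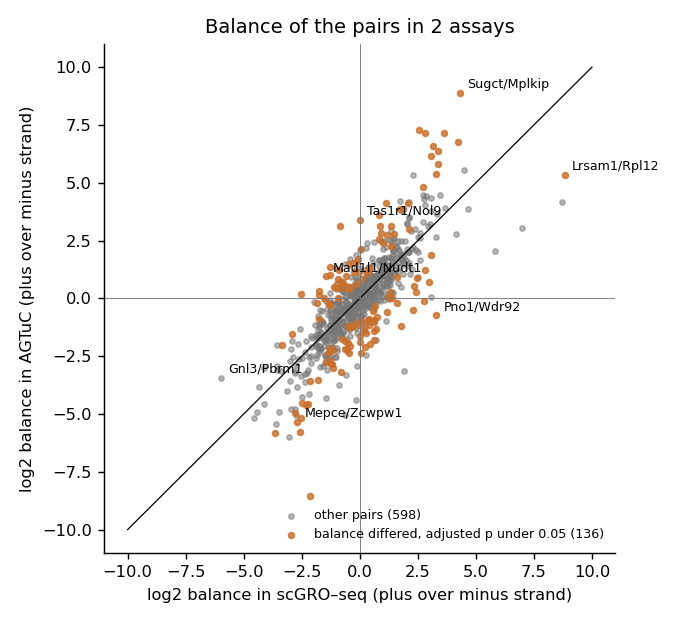
Log2 ratio of the plus-strand over the minus-strand gene in AGTuC (vertical axis) against scGRO–seq (horizontal axis) for 734 pairs with at least 20 reads in both assays. Orange points are the 136 pairs whose balance differed between the assays at an adjusted p under 0.05, and the line marks equal balance. Mad1l1/Nudt1 and Pno1/Wdr92 cross from one leading side to the other, while Sugct/Mplkip lies farther out in AGTuC.

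Joint cells of a pair are cells with at least 1 read on each side in the first 10 kb after the trimmed 500 bp. They were compared with the number given by permuting the cell identity of reads within each library. In all, 3419 joint cells were observed over the 761 pairs and 3540.6 were expected, a ratio of 0.966 with a 95% Poisson interval of 0.934 to 0.999, which covers counting error only. Across the 10 batches the ratio was 0.964 ± 0.107 (SD), from 0.788 to 1.15. Neighbours 20 to 100 kb apart had 3709 joint cells with 3814.83 expected, a ratio of 0.972 and a batch mean of 0.986 ± 0.0992. The ratio of the pairs was above that of the neighbours in 6 of 10 batches. More joint cells than permutation gives were thus not detected, and the pairs differed from the neighbours by less than the spread between batches. The paper estimates that only a part of the nascent RNA of a cell is captured. How strong a link between the sides these counts could have shown was not tested. With the number of distinct cells of each side kept in place of its reads, an alternative chosen after seeing the data, the ratios were 0.991 and 1.00.

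Batch Exp236 gave 2324 of the 3419 joint cells, and without it the ratio was 0.969 from 1095 joint cells. The ratio was 0.993 for starts at most 100 bp apart, 0.938 for starts up to 300 bp apart and 0.971 for starts farther apart. Without sides that hold a pile-up it was 0.962, and in the 339 pairs with little antisense signal in AGTuC it was 0.975. In scGRO–seq only 2 of 604 pairs without a gene opposite had sense reads at least 4 times antisense on both sides. The choice by AGTuC therefore could not select pairs with little such signal in scGRO–seq, where joint cells were counted. At least 1 joint cell was found in 557 of the 761 pairs.

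**Figure D4:**
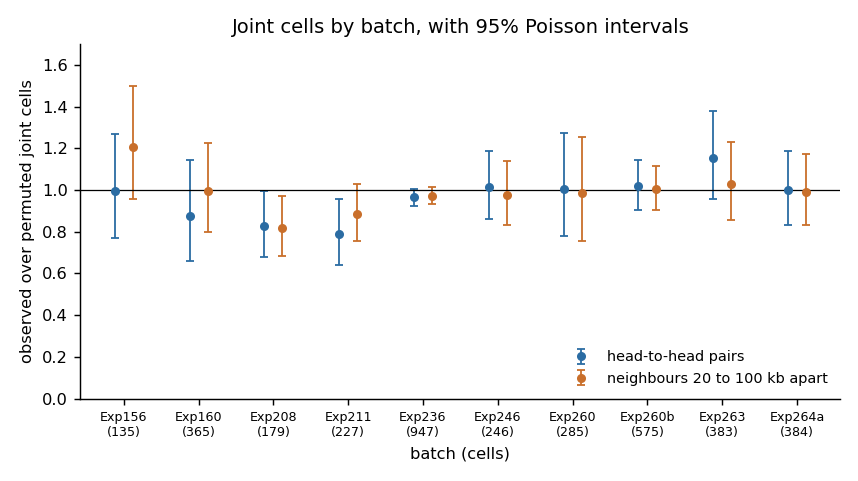
Observed over permuted joint cells (vertical axis) in each batch, with the number of cells in parentheses, for head-to-head pairs (blue) and neighbours 20 to 100 kb apart (orange). Bars are 95% Poisson intervals of the observed number and cover counting error only. The interval of the pairs lies below 1 in 2 batches and above 1 in 0, and that of the neighbours lies below 1 in 1 batch.

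The median of single pairs lay close to permutation as well. Among the 195 pairs with at least 5 joint cells expected, the median ratio was 0.955, with quartiles of 0.765 and 1.12, against 0.979 in 205 neighbour pairs. The pairs with most joint cells expected were Zwilch/Rpl4 (144 observed, 149.4 expected), Gnl3/Pbrm1 (88 and 90.3), Snx5/Mgme1 (89 and 88.2), Hnrnpa2b1/Cbx3 (47 and 51.5), Dido1/Gid8 (49 and 51.3) and Pno1/Wdr92 (52 and 51.3). Without reads within 50 bp of a small RNA gene, Zwilch/Rpl4 had 27 observed and 32.02 expected, Gnl3/Pbrm1 32 and 31.5 and Snx5/Mgme1 53 and 54.6. Gnl3, which encodes nucleostemin, and Pbrm1, a subunit of a chromatin remodelling complex, start 7 bp apart. Snx5, a sorting nexin, and Mgme1, a nuclease of mitochondrial DNA, start 2 bp apart. Their Poisson intervals of 0.782 to 1.20 and 0.810 to 1.24 include 1.

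Hnrnpa2b1, a splicing factor, and Cbx3, a heterochromatin protein, had the most joint cells expected among the pairs without a pile-up. Hnrnpa2b1 was at 4.53 to 26.4 in scGRO–seq (median 9.82), at 6.64, 8.77, 1.86 and 14.1 in inAGTuC and at 17.6 and 14.6 in AGTuC. Cbx3 was at 0.378 to 2.23 (median 0.996), at 1.33, 1.71, 0.566 and 1.14 and at 3.71 and 3.93. The ratio of joint cells of this pair was 0.912 (95% Poisson interval 0.670 to 1.21). Without batch Exp236 it had 10 joint cells with 18.8 expected. Of the textbook pairs, Brca1/Nbr1 had 8 joint cells with 8.10 expected, Atm/Npat 5 with 5.75, Mcm4/Prkdc 5 with 10.4, Mcm7/Ap4m1 5 with 12.1 and Ftsj3/Psmc5 10 with 12.8.

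The largest ratios among pairs with at least 5 expected were those of Lmf2/Ncaph2 (11 observed, 5.59 expected), Ankib1/Krit1 (10 and 5.24), Polk/Cert1 (12 and 7.09) and Zbtb26/Rabgap1 (9 and 5.67). All 10 joint cells of Ankib1/Krit1 and 11 of the 12 of Polk/Cert1 came from batch Exp236, and the Polk window held a pile-up of 154 of its 234 reads. The smallest were those of Thap2/Zfc3h1 (2 and 6.89) and Lnx2/Polr1d (3 and 10.1). Among 390 pairs with at least 2 expected, the Poisson interval lay above 1 in 1 pair (Asb7/Lins1, named after its value was seen) and below 1 in 3.

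In the limma fit of the ratio over batches, with the residual variance held at or above counting error, 0 of the 390 pairs passed and 1 had an unadjusted p under 0.05, with 0% of all 795 pairs and neighbours passing. Of all 795 tested, 4 had an unadjusted p under 0.05, fewer than a threshold of 0.05 gives by chance. This fit is therefore conservative, and its 0 cannot show that no pair differs. That limit was chosen after seeing the data, because the planned fit without it takes pairs with 0 joint cells in all batches as having no spread, and also made calls in counts drawn without any difference. The planned fit called 36 of the 390 pairs, 35 of them below the permuted number and 9 of them with 0 joint cells, where 8.81% of all tested were called. Among them were Lnx2/Polr1d, Mcm7/Ap4m1 and Uqcrh/Lrrc41 (adjusted p = 5.34e-05, 0.00679 and 5.34e-05, limma), the last with 0 joint cells.

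**Figure D5:**
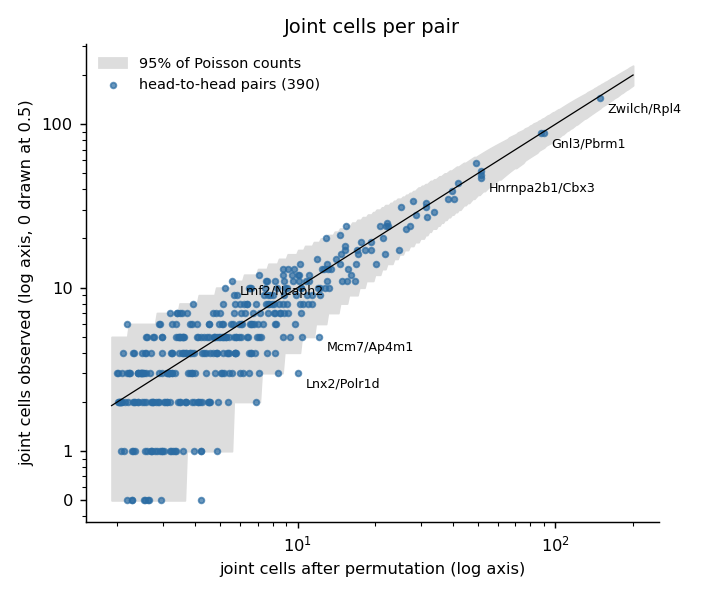
Joint cells observed (vertical axis, 0 drawn at 0.5) against the number after permutation (horizontal axis) for the 390 pairs with at least 2 expected, on log axes. The line marks equality and the grey band holds 95% of Poisson counts around it. Zwilch/Rpl4, with 144 observed and 149.4 expected, lies on the line, and Lnx2/Polr1d and Mcm7/Ap4m1 lie below the band.

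Polymerases that start together would lie at like distances from their starts, so distances were compared in joint cells. Over the 391 pairs with both windows of 10 kb, the nearest polymerases of both sides differed by under 2.5 kb in 48.9% of 1805 joint cells, against 43.7% between reads of different cells of the same library. This difference of 5.19 percentage points fell to 0.527 without batch Exp236, which gave 1270 of these joint cells, and averaged 1.34 ± 6.71 points over the batches (SD, n = 10), below its spread. The neighbours gave 48.8% against 44%. Taking the nearest of several reads raises the first share, and in the 1486 joint cells with 1 read a side it was 45.02% against 43.6%.

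The share of genes in a pair was counted in lists of genes for basic cell functions. Of 112 genes of the mitochondrial ribosome and translation, 35 (31.2%) were in a pair, of 148 genes of DNA replication and repair 41 (27.7%), of 154 genes of the respiratory chain 42 (27.3%) and of 143 genes of RNA polymerase, Mediator and general transcription 31 (21.7%). The shares were 18.9% of 280 splicing and RNA processing genes, 18.4% of 234 cell division genes, 17% of 229 cytosolic ribosome and translation genes, 15.0% of 367 proteasome, ubiquitin and chaperone genes and 9.30% of 129 chromatin genes, beside 7.74% of all protein-coding genes. Of 104 core histone genes 26 were in a pair, in 13 pairs of histones with each other. The lists were chosen by symbol and these shares carry no test.

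In pairs with 1 member in a list, the side of the list led in 26 of 35 pairs of cytosolic ribosome and translation genes and in 39 of 52 pairs of splicing genes, with median log2 ratios over the partner of 1.32 and 0.83 in scGRO–seq. DNA replication and repair genes led in 18 of 38 pairs, with a median of −0.07, and mitochondrial ribosome genes in 16 of 29, with 0.06. In AGTuC against scGRO–seq, 22 of 35 tested cytosolic ribosome and translation genes passed as higher and 0 as lower, as did 25 and 1 of 52 splicing genes, 18 and 1 of 31 mitochondrial ribosome genes, 17 and 2 of 36 respiratory chain genes and 14 and 2 of 39 replication and repair genes. The background was 30.2% higher and 19.5% lower, and the medians of these lists were 0.96, 0.66, 0.89, 0.73 and 0.41. Of all other genes under 10 kb 59.1% were higher, and the part of gene length in the counts of the lists was not tested. Joint cells were 0.906 times the permuted number in replication and repair pairs (192 observed), 1.04 in mitochondrial ribosome pairs (120), 1.04 in respiratory chain pairs (250) and 0.981 in cytosolic ribosome and translation pairs (459).

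Among the genes with most body reads in each list, some passed the test between AGTuC and scGRO–seq and others did not. Setd3 differed by 0.02 on the log2 scale (adjusted p = 0.943, limma), Polr1a, the largest subunit of RNA polymerase I, by 0.06 (adjusted p = 0.852), Ube2k, a ubiquitin-conjugating enzyme, by −0.33 (adjusted p = 0.331) and Mrps27, of the mitochondrial ribosome, by 0.41 (adjusted p = 0.149). Brd2, a reader of acetylated histones paired with H2-DMa, was higher in AGTuC than in scGRO–seq by 2.84 ± 0.24 on the log2 scale (SE, adjusted p = 1.66e-07, limma). Prmt7, an arginine methyltransferase paired with Slc7a6os, was higher by 1.45 ± 0.29 (adjusted p = 0.000606). Xrcc4, of DNA end joining, fell by 1.67 (adjusted p = 0.0306), as did Fars2, the mitochondrial phenylalanyl-tRNA synthetase, by 1.54 and its partner Lyrm4, of iron–sulfur cluster assembly, by 1.68 (adjusted p = 0.00203 and 0.00198). The body of the histone gene H2bc4, which leaves out 500 bp at both ends of the gene, was higher in AGTuC by 4.48 ± 0.47 (adjusted p = 1.12e-06). It had 24 reads in scGRO–seq.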

How the data were processed

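Each deposited file lists the reads of 1 library of V6.5 ES cells after the authors trimmed adaptors (Cutadapt), split cell barcodes and UMIs (Flexbar), removed ribosomal reads, mapped to mm10 (bowtie2) and removed duplicates (UMI-tools). Tool versions are not given in the sources used here. The deposited score of a read is its mapping quality and served only as a filter in an alternative; reads were counted here, on the strand opposite to the listed one, without reads whose last base lay on a small RNA gene of the RefSeq annotation. Reads ending just outside such genes stayed in the counts and were left out, up to 50 bp away, in an alternative. Of 82 samples, 23 were not used here.

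Body reads were compared with limma 3.58.1 (voom, all genes with at least 50 reads, scaled to body reads, Benjamini-Hochberg), balance with limma on the difference of both sides, and joint cells with limma on observed over expected minus 1 per batch, weighted by the expected number. Functions were tested on simulated data; there the planned joint-cell fit made calls without a difference, and the variance limit was added after the data were seen. The joint cells expected from permutation were computed exactly. Intervals cover counting error only.

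The pairs, lists and tests were chosen with earlier results of these data known. Named were textbook pairs, the 6 pairs with most joint cells expected, the largest and smallest ratios and imbalances, the 2 pairs with the smallest p for balance in each contrast, and in each functional group the genes with most scGRO–seq body reads. 1 pair that this rule names is not reported here. Sequences were read from GRCm38. Replicates were left out in turn; other alternatives were pseudocounts, windows, filters, models, normalization and read sets.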

Additional observations from a re-analysis of the deposited data

Results flagged for a closer look

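In groups of 4 to 10 samples, a highest or lowest sample that stood far from all others by Dixon's criterion was found in 24 of 118 groups of values. For independent values with a normal distribution, about 1 in 20 would be flagged. The groups share the same samples and hold skewed, partly low counts, so that rate is only a rough guide. Batch Exp156, the shallowest, was the highest for 14 named genes, with levels in RPKM of 1.92 for Brca1, 3.26 for Mrps12 (1 read, with 0 reads in 6 of the 10 batches), 11.6 for Mcm7, 26.4 for Hnrnpa2b1, 2.23 for Cbx3, 8.42 for Lmf2, 5.48 for Ncaph2, 2.68 for Polr1d, 3.20 for Zfc3h1, 1.52 for Lrsam1, 2.16 for Uqcrh, 4.54 for Nol9, 4.05 for Mepce and 1.66 for Mad1l1. Other batches of scGRO–seq stood apart for Nbr1 (10.9 in Exp211), Wdr92 (32.05 in Exp264a), Cert1 (0.929 in Exp208), Thap2 (1.20 in Exp263) and Mplkip (3.27 in Exp260). Among inAGTuC libraries, the fourth was far above the others for Rpl4 (379) and Rpl7a (759), both with reads at the ends of snoRNA genes, the third was lowest for Pbrm1 (0.411) and for the share of body reads on paired genes (7.79%), and the first was highest for Sugct (0.144).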

How the results depend on the processing

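All 3 ratios of joint cells stayed within 1 SD of the batches under each alternative run. With reads of a cell within 50 bp of each other counted once, the ratio was 0.9998 for pairs and 1.02 for neighbours. The distance match also stayed within 1 SD, but that SD of 6.71 points was larger than the value of 5.19, so this could not show a change. Without Exp236 the distance match was 0.527. Leaving out 1 batch gave ratios of 0.960 to 0.972 for pairs, 0.968 to 0.979 for neighbours and 0.989 to 0.997 for one over the other. Planned joint-cell calls, 36 in all, were 5 over whole bodies, 0 with the variance limit and 6 to 42 with 1 batch left out, the lowest without Exp236. The imbalance in scGRO–seq was 1.17 with a pseudocount of 0.1 and 1.14 with all deposited reads. That in AGTuC was 1.12 and 1.10 with pseudocounts of 0.1 and 1, 1.07 with at least 100 reads, 1.05 in the first 10 kb, 1.11 with all reads, 1.03 in pairs with little antisense signal and 1.11 to 1.12 with 1 library left out. Paired genes that differed between inAGTuC and scGRO–seq were 5 without library Exp261_c16, 3 within batch Exp208 and 0 to 5 with 1 sample left out. For AGTuC against inAGTuC they were 115 by limma-trend, 143 with at least 500 reads, 87 in the first 10 kb and 61 to 368 with 1 sample left out, and for AGTuC against scGRO–seq 262, 229, 244 and 269 to 655. Pairs that differed in balance were 12, 18, 31 and 11 to 86 for AGTuC against inAGTuC and 25, 32, 87 and 25 to 146 for AGTuC against scGRO–seq. Without the first AGTuC library the 4 counts against AGTuC, in this order, were 148, 398, 23 and 64, without the second they were 61, 269, 11 and 25, and without the third inAGTuC library 53 pairs differed in balance between AGTuC and inAGTuC. Counts against AGTuC rest on 2 libraries of 1 batch, so batch and assay cannot be told apart. Batch Exp208 as a block and leaving out reads within 50 bp of small RNA genes left each count within 1.5 times. Both alternatives and the fit within Exp208 were chosen after seeing the data, and that fit gave 3 paired genes in place of 0. Single libraries could not be paired across assays because the labels number no replicates. The batch shared by 2 assays as used here served as a block and for the fit within it instead.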

Other observations

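Of genes not in the main rule, 178 further pairs have starts that cross by at most 1 kb, so that the transcripts overlap at their 5′ ends. In 162 of them with both bodies, 569 joint cells were observed, a ratio to the permuted number of 0.988 with a batch mean of 1.03 ± 0.105 (SD, n = 10). The log2 levels of both sides had a Pearson r of 0.290 in scGRO–seq and 0.302 in AGTuC. It was taken over the 160 and 155 of these pairs with at least 20 reads summed over both sides. With any curated transcript start in place of the outermost one, 917 head-to-head pairs were found.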
